A study of Mus musculus with 4 samples.

Results

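The antiviral genes described here are Isg15, Ifit1, Ifit2, Ifit3, Ifit3b, Oas1a, Oas2, Oas3, Oasl1 and Oasl2, 10 of the 32285 genes listed in each library. They were taken by symbol, and all 10 had counts in each of the 4 single-cell libraries. The libraries came from male C57BL/6 mice aged 8 weeks, killed on day 18 after B16-F10 melanoma cells were implanted under the skin, so every group carried a tumour. The groups were tumour from Ndufa4-deficient mice (KO), tumour from wild-type mice (WT), spleen from KO mice and spleen from WT mice. The tumour sort kept cells with CD45, a surface protein of leukocytes, and the spleen sort kept cells that also carried CD11b, found on myeloid and NK cells. Each group was 1 library, pooled from equal numbers of cells of 3 mice. The labels do not say how or in which cells Ndufa4, a small subunit of cytochrome c oxidase, was made deficient. Nothing in 1 pooled library per group measures how mice differ. No p-value was computed, and all intervals are 95% intervals for counting error only.

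Interferons bind receptors that activate a complex of transcription factors, which turns on genes with interferon-stimulated response elements in their promoters. The Ifit genes code for proteins that bind foreign RNA and block its translation. The Oas genes code for oligoadenylate synthetases, which sense double-stranded RNA and answer it by making a small signalling molecule. Oasl1 and Oasl2 are related to them, and mouse Oasl1 is known to restrain translation of Irf7. Isg15 codes for a ubiquitin-like protein that is attached to other proteins and can also be secreted.

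The 4 Ifit genes lie within 99.3 kb of chromosome 19 (GRCm38), Isg15 on chromosome 4 and the 5 Oas and Oasl genes on chromosome 5. Because the members share an inducer, the RefSeq promoter windows, from 250 bases before to 50 after the transcription start, were searched on both strands for the core of the response element, GAAANNGAAA. The windows are shown for the gene with the most UMIs in tumour phagocytes, for Ifit1, for 2 Oas genes with a match and for Oasl2, which has none. Capitals mark the matches, which read TTTCNNTTTC where they lie on the other strand, and overlapping matches run together.
Isg15: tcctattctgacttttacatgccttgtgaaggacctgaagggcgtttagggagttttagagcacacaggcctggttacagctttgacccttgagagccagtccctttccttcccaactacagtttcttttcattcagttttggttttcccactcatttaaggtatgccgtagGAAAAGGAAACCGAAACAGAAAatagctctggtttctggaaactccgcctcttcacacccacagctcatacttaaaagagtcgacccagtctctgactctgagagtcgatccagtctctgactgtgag
Ifit1: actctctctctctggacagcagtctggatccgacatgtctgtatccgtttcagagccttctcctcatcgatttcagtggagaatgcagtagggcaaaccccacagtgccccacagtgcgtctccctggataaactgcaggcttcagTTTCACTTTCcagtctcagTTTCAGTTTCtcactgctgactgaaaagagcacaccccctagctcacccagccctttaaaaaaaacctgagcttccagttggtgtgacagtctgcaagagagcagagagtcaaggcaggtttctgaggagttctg
Oas1a: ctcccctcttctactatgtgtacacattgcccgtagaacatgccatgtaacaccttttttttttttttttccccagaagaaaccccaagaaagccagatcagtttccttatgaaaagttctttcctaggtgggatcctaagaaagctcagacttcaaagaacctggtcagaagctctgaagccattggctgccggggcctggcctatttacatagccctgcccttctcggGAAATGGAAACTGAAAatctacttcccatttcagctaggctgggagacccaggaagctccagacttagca
Oas3: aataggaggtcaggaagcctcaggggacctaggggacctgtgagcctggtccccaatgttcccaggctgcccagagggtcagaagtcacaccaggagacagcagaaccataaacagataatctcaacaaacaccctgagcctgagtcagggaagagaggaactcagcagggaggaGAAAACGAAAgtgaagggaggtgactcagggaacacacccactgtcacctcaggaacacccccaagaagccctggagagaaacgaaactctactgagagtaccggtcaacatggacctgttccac
Oasl2: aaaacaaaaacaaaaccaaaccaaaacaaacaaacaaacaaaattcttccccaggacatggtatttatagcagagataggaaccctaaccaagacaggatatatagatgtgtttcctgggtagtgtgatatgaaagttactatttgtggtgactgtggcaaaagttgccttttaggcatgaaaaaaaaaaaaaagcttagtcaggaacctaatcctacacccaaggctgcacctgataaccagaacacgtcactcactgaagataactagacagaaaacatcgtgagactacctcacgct
The windows were, on GRCm38.p6, chr4:156200769-156201068 on the minus strand for Isg15 and chr19:34640639-34640938 on the plus strand for Ifit1. They were chr5:120907476-120907775 on the minus strand for Oas1a, chr5:120777610-120777909 on the minus strand for Oas3 and chr5:114896684-114896983 on the plus strand for Oasl2. Of the 9 members with a window, 6 held a match, namely Isg15 with 3, Ifit1, Ifit3, Ifit3b and Oas1a with 2 each and Oas3 with 1. Among all 27025 genes with a window, 3.99% held one. A match was not particular to the members. It was held by 6 of 8 genes induced chiefly by interferon gamma, 4 of 6 other Ifit and Oas family genes and 11 of 18 interferon genes. Among genes that attach or remove ISG15 it was held by 0 of 5, and among housekeeping genes by 0 of 6. Oas2 had no window in the table. The Ifit3 and Ifit3b windows share an unbroken run of 169 bases. The last 500 bases of their transcripts align over 197 bases with 94.9% identity, and a 3′ counting method may split reads between them, so their separate values are uncertain. In no other pair of members was the longest run shared by the last 500 bases over 12 bases.

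The libraries held 6122 KO and 4798 WT tumour barcodes, with 63560706 and 47754169 UMIs, and 7789 KO and 8107 WT spleen barcodes, with 46499361 and 57272311 UMIs. A UMI, or unique molecular identifier, marks 1 captured transcript molecule. After filtering, 4351 KO and 3844 WT tumour cells and 6468 KO and 7008 WT spleen cells remained. Pairs of libraries shared between 6 and 22 barcodes. Cells were placed into classes by marker genes, and every class name means cells like that type. In the classes compared, all markers of the class's own list were detected in both libraries. Ndufa4 gave 287 UMIs over the KO and 11339 over the WT tumour cells, and 25 over the KO and 13302 over the WT spleen cells.

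In tumour mononuclear phagocytes, that is macrophages and classical monocytes, the antiviral genes were higher in KO as a set. The sum of 10 genes was 1317 counts per 1000000 UMIs of the class (CPM) in 829 KO cells and 607 CPM in 1143 WT cells. The log2 ratio of KO over WT was 1.12 [1.08, 1.15]. It was 1.03 [0.98, 1.09] in macrophages alone and 1.08 [1.03, 1.12] in classical monocytes alone as gated by markers. With classes taken from clusters instead, the ratio was 1.67 in macrophages and 0.74 in classical monocytes, and 1.09 in the phagocytes together, so the value within each of the 2 classes depends on how they are divided. Of the 10 genes, 9 lay above the KO over WT limit of 1.5-fold and 0 below its inverse, where 11% of all 12024 genes with at least 20 UMIs in this class were higher and 14.1% lower. The count was also 9 and 0 in macrophages, where 9.7% of genes were higher and 13.7% lower, and in classical monocytes, where 13.5% were higher and 11.1% lower. Their median log2 ratio was 1.08, and that of all genes was −0.02.

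Isg15 had the highest level of the 10 in these phagocytes, with 428 CPM in KO and 181 CPM in WT cells (log2 ratio 1.24 [1.18, 1.31]). Its ratio lay above those of the 4 Ifit genes, and its interval overlaps only that of Ifit3b. Among the RNA-binding Ifit genes, Ifit2 stood at 165 CPM in KO and 81.8 CPM in WT cells (1.02 [0.92, 1.11]). Ifit3 stood at 127 CPM in KO and 64.4 CPM in WT cells (0.98 [0.87, 1.09]). Ifit3b was the least abundant member, at 17.2 CPM in KO and 7.75 CPM in WT cells (1.15 [0.83, 1.46]). Ifit1 was the exception below the 1.5-fold limit in the phagocytes together, with 106 CPM in KO and 72.0 CPM in WT cells (0.56 [0.45, 0.67]). It passed the limit in macrophages alone (0.73 [0.55, 0.91]) but not in classical monocytes alone (0.32 [0.18, 0.47]). Over alternative processing its phagocyte ratio ranged from 0.27 to 0.91. Of the synthetases, Oas3 differed most of all members, with 87.3 CPM in KO and 27.5 CPM in WT cells (1.67 [1.51, 1.82]). Oas2 followed at 37.6 CPM in KO and 19.3 CPM in WT cells (0.96 [0.76, 1.16]). Oas1a, at 61.6 CPM in KO and 40.3 CPM in WT cells, lay just above the limit (0.61 [0.46, 0.76]), with a ratio of 0.40 in macrophages and 0.66 in classical monocytes alone. The synthetase-like Oasl2 had 234 CPM in KO and 91.1 CPM in WT cells (1.36 [1.28, 1.45]), and Oasl1 52.3 CPM in KO and 22.4 CPM in WT cells (1.22 [1.04, 1.41]). The intervals of Oas3 and Oas1a, both oligoadenylate synthetases, do not overlap, but they cover neither the spread between cells nor that between mice. Whether all members differed by the same factor was not tested.

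**Figure D1:**
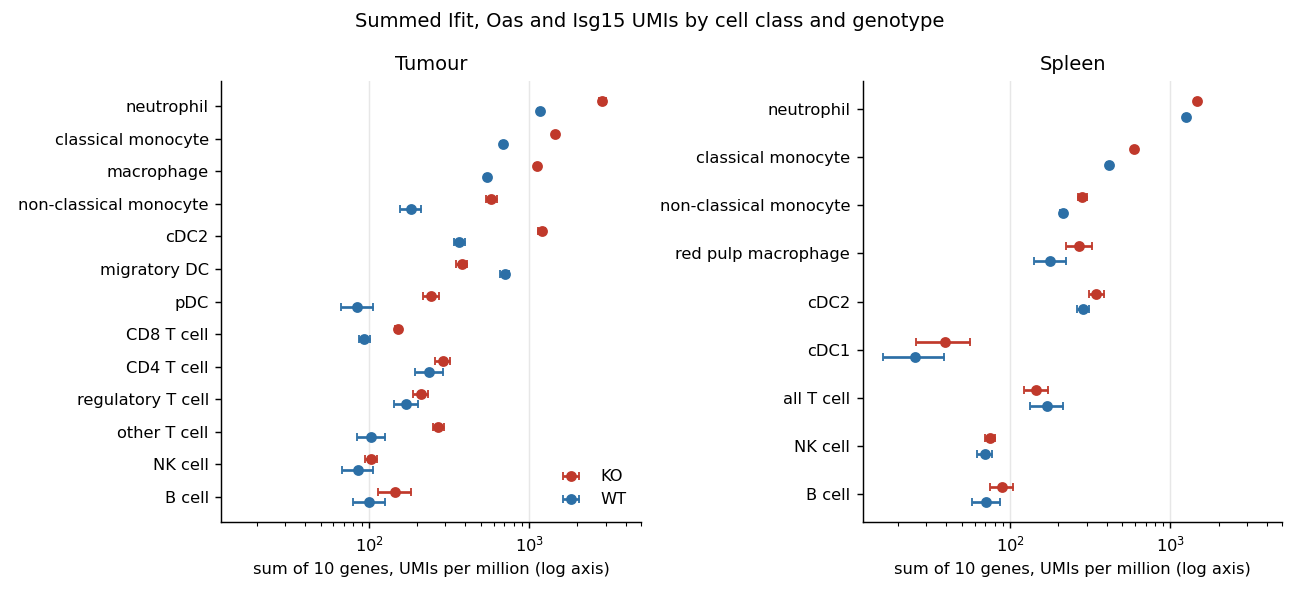
Summed UMIs of the 10 genes per 1000000 UMIs of each cell class (horizontal log axis) in tumour and spleen, with KO in red above WT in blue and bars for the 95% Poisson interval, which is hidden by the point where it is short. KO lies right of WT in the tumour classes shown except migratory DC, and the widest gap of a myeloid class is that of tumour cDC2 (1194 against 366 CPM).

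Markers of other cell types also differed in these phagocytes. The 7 markers of natural killer (NK) cells summed to 22.3 CPM in KO and 3.49 CPM in WT cells, and the 6 T cell markers to 34.0 CPM in KO and 19.7 CPM in WT cells. The 9 neutrophil markers summed to 161 CPM in KO and 311 CPM in WT cells, and the 9 macrophage markers to 6868 CPM in KO and 10894 CPM in WT cells. The part of these RNAs in the difference was not tested.

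The KO and WT phagocytes differed in how the antiviral UMIs were spread over cells. In WT tumours a few cells held most of them, while in KO tumours nearly every phagocyte had some. Median depth was alike, at 14029 UMIs per cell in KO and 14155 UMIs in WT. No UMI of the 10 genes was found in 7.72% [6.00, 9.75] of KO and 30.4% [27.7, 33.1] of WT phagocytes. The highest 10% of cells held 44.3% of the antiviral UMIs in KO and 70.9% in WT. In classical monocytes the highest 10% held 43.4% in KO and 68.5% in WT, and in macrophages 46.2% in KO and 73.3% in WT. The median cell had 10 UMIs of the 10 genes in KO and 2 in WT, whereas the highest single cells had 374 in KO and 326 in WT.

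The same difference was seen when every cell was thinned at random to 5000 UMIs, which left out 93 KO and 163 WT phagocytes. No antiviral UMI was then found in 10.9% [8.71, 13.3] of KO and 45.5% [42.4, 48.7] of WT phagocytes. The quartiles of the thinned sum were 2, 4 and 8 UMIs in KO, against 0, 1 and 2 UMIs in WT. The lower quartile of KO cells thus lay at the upper quartile of WT cells. At 1000 UMIs per cell, 5.88% [4.37, 7.72] of KO and 3.63% [2.62, 4.89] of WT phagocytes reached 5 UMIs of the 10 genes, a difference of 2.25 points [0.36, 4.31], and at a limit of 3 UMIs the difference was 10.3 points. Without thinning, 70.7% of KO and 31.8% of WT phagocytes had 5 or more. The share above 2 UMIs, the 90th percentile of WT cells, was 16.3% in KO and 6.02% in WT. Of the cells with 5 or more at 1000 UMIs, 46 of 48 in KO and 40 of 41 in WT held at least 3 different members. These cells were picked by the sum of the same genes, so the counts only describe them. In spleen classical monocytes thinned to 5000 UMIs, 26.0% [23.0, 29.2] of KO and 29.5% [27.1, 32.0] of WT cells had no antiviral UMI, and the highest 10% of cells held 39.9% of the UMIs in KO and 39.5% in WT. Without thinning, at median depths of 10932 UMIs in KO and 13310 UMIs in WT, the share with none was 14.5% in KO and 11.6% in WT, the opposite direction.

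**Figure D2:**
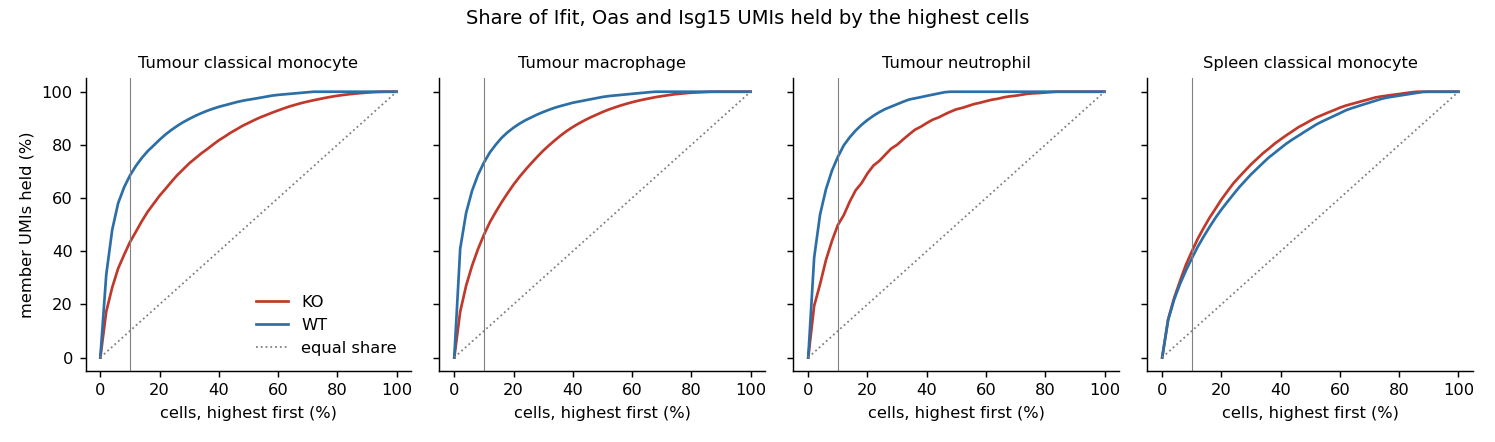
Share of the UMIs of the 10 genes (vertical axis, %) held by the cells with the most of them (horizontal axis, % of cells, highest first), with KO in red, WT in blue and the dotted line for an equal share. At the vertical line at 10%, the WT curves of the 3 tumour classes lie above the KO curves (68.5% against 43.4% in classical monocytes), while the spleen curves nearly coincide.

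Droplets also take up free RNA, and no class here can be assumed to lack interferon-inducible transcripts. The lowest sums were in spleen type 1 conventional dendritic cells (cDC1), at 38.9 CPM in KO and 25.6 CPM in WT. In tumours the lowest sums were 103 CPM in KO NK cells and 84.6 CPM in WT plasmacytoid dendritic cells (pDC). The cDC1 sums limit free RNA in cDC1 only. Their median depth was 12892 UMIs in KO and 18029 UMIs in WT, against 2530 in KO and 2563.5 in WT spleen neutrophils. The share of free RNA in classes of lower depth was not tested.

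Tumour neutrophils had the highest antiviral levels of any class in either tumour library. The sum of 10 genes was 2861 CPM in 135 KO cells and 1172 CPM in 964 WT cells (1.29 [1.20, 1.37]). Isg15 alone reached 1170 CPM in KO and 383 CPM in WT neutrophils (1.61 [1.47, 1.74]), and Ifit2 reached 231 CPM in KO and 71.8 CPM in WT (1.68 [1.37, 1.99]). The smallest difference was that of Ifit3b, with 89.5 CPM in KO and 54.4 CPM in WT (0.72 [0.25, 1.16]). All 10 members were at least 1.5-fold higher in KO, but so were 34.1% of all genes in this class (12.7% were lower), whose median log2 ratio was 0.28. Marker RNAs of other types were also higher in these KO neutrophils, with macrophage markers at 791 CPM in KO and 373 CPM in WT and B cell markers at 129 CPM in KO and 18.5 CPM in WT. Their part was not tested. No antiviral UMI was found in 16.3% [10.5, 23.6] of KO and 53.2% [50.0, 56.4] of WT neutrophils, at median depths of 3722 and 3605 UMIs. At 1000 UMIs, 21.2% [14.6, 29.2] of KO and 6.85% [5.28, 8.71] of WT neutrophils reached 5 UMIs of the 10 genes, a difference of 14.4 points [7.98, 22.2]. Counted without Isg15, that difference was 3.62 points.

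**Figure D3:**
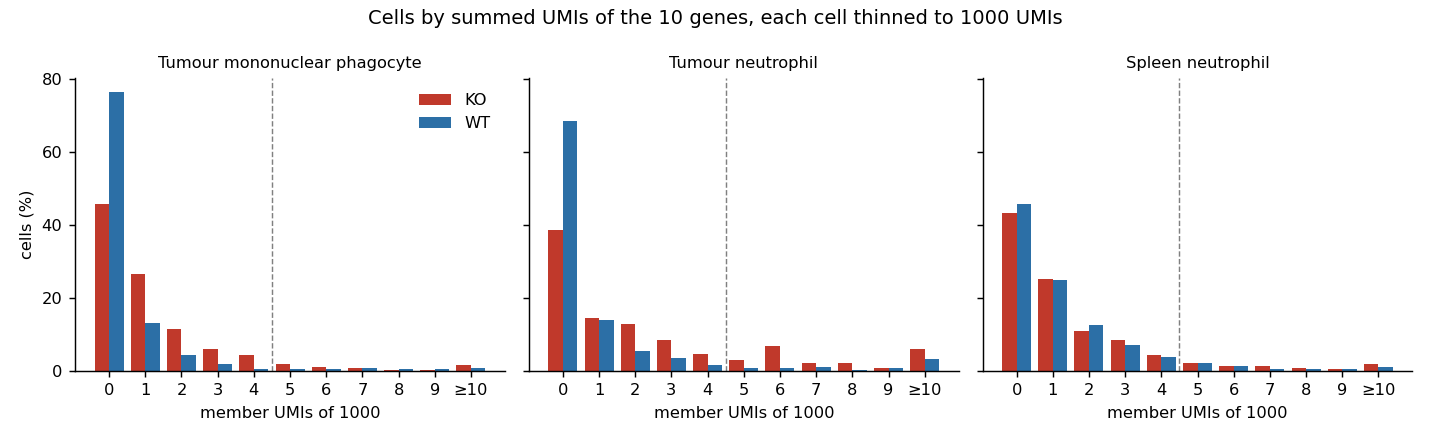
Share of cells (vertical axis, %) by the number of UMIs of the 10 genes in each cell after thinning to 1000 UMIs (horizontal axis), with KO in red left of WT in blue and the dashed line at the limit for a high sum. Cells without a UMI made up 45.7% of KO and 76.4% of WT tumour phagocytes and 38.6% of KO and 68.6% of WT tumour neutrophils, against 43.4% of KO and 45.8% of WT spleen neutrophils.

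The antiviral sums of the dendritic cell classes of the tumour differed in opposite directions. In type 2 conventional dendritic cells (cDC2), the sum was 1194 CPM in 93 KO cells and 366 CPM in 81 WT cells (1.71 [1.57, 1.84]), and all 10 members were at least 1.5-fold higher in KO, against 9.27% of all genes (12.1% were lower). Ifit3 had the widest gap there, with 167 CPM in KO and 20.6 CPM in WT cDC2 (3.02 [2.50, 3.58]). In migratory dendritic cells, which carry the lymph node homing receptor Ccr7, the sum was 378 CPM in 100 KO cells and 704 CPM in 81 WT cells (−0.90 [−1.05, −0.74]). Of the 8 members with at least 20 UMIs, 6 were at least 1.5-fold lower in KO, against 12% of all genes, and 1, Oasl1, was higher, against 10.5%. Ifit3 stood at 7.07 CPM in KO and 62.4 CPM in WT migratory cells (−3.14 [−4.25, −2.19]). A single WT cell, with 252 antiviral UMIs, held 27.2% of the WT sum of this class. Without the highest cell of each library the ratio was −0.60 [−0.77, −0.43]. In pDC, which make type I interferon on viral infection, the sum was 243 CPM in 96 KO cells and 84.6 CPM in 82 WT cells (1.52 [1.16, 1.90]). All 5 members with enough UMIs there were higher in KO, against 9.26% of genes, while 10.5% of genes were lower. However, 1 WT pDC held 40% of the WT antiviral UMIs of this class. Without the highest cell of each library the pDC ratio was 1.99 [1.54, 2.46].

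Non-classical monocytes, which patrol vessels, had a sum of 579 CPM in 124 KO and 182 CPM in 120 WT tumour cells (1.67 [1.43, 1.91]). Of their 9 members with enough UMIs, 7 were higher in KO and 0 lower, where 9.62% of all genes were higher and 9.9% lower. Their Oas1a level was nearly equal, at 29.4 CPM in KO and 29.2 CPM in WT (0.01 [−0.75, 0.77]). Of the WT antiviral UMIs of this class, 1 cell held 26.7%. Without the highest cell of each library the ratio of the sum was 1.94 [1.67, 2.22].

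**Figure D4:**
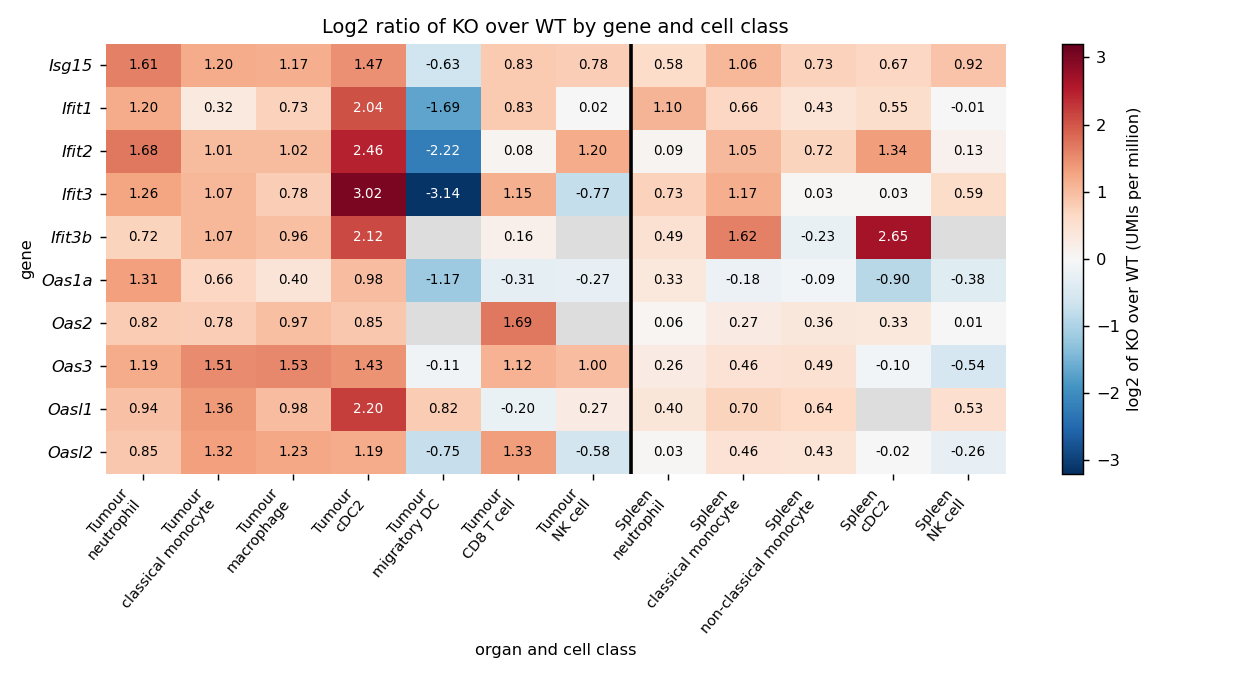
Log2 ratio of KO over WT for each gene (rows) in 7 tumour and 5 spleen classes (columns), red where KO was higher, blue where it was lower and grey where the 2 libraries together had under 20 UMIs. The columns of tumour neutrophils, classical monocytes, macrophages and cDC2 are red for every gene, whereas migratory DC turn blue, down to −3.14 for Ifit3.

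The sums in T, NK and B cells of the tumour lay between 103 and 288 CPM in KO and between 85.7 and 238 CPM in WT, below those of phagocytes and neutrophils, and their KO over WT ratios differed from class to class. In CD8 T cells the sum was 151 CPM in 1250 KO and 93.5 CPM in 447 WT cells (0.69 [0.56, 0.82]), and 6 members were higher in KO and 0 lower, where 6.87% of all genes were higher and 8.38% lower. Thinning cells to 1000 UMIs gave a sum ratio of 1.20. Ifit3 was at 30.3 CPM in KO and 13.6 CPM in WT CD8 T cells (1.15 [0.82, 1.49]), while Ifit2 was at 23.4 CPM in KO and 22.1 CPM in WT (0.08 [−0.19, 0.37]). In NK cells the sum was 103 CPM in 720 KO and 85.7 CPM in 146 WT cells (0.27 [−0.07, 0.62]), with an interval that includes 0. However, 1 WT NK cell held 24.4% of the WT UMIs, and without the highest cell of each library the NK ratio was 0.56 [0.18, 0.97]. Thinning NK cells to 1000 UMIs gave 1.34. Of the 8 NK cell members with enough UMIs, 3 were higher, against 8.2% of all genes, and 1, Ifit3, was lower, against 13%. In CD4 T cells the sum was 288 CPM in 132 KO and 238 CPM in 73 WT cells (0.28 [−0.05, 0.61]), but 1 WT cell held 69.5% of the WT UMIs. Without the highest cell of each library, the CD4 ratio was 1.87 [1.34, 2.44] and that of regulatory T cells 0.75 [0.41, 1.09], against 0.29 [0.01, 0.58] with all cells. In CD4 T cells 2 of 7 members were higher, against 19.6% of genes, and 1 was lower, against 13.5%. In regulatory T cells 2 of 6 were higher, against 7.46%, and 1 was lower, against 13%. The remaining T cells had 271 CPM in 264 KO and 103 CPM in 123 WT cells (1.39 [1.08, 1.71]), and 6 of their 8 members were higher, where 11.9% of genes were higher and 10.8% lower. B cells stood at 145 CPM in 76 KO and 100 CPM in 140 WT cells (0.54 [0.06, 1.02]), and at 0.93 [0.38, 1.49] on the log2 scale without those cells. All 3 of their members with enough UMIs were higher, where 11.6% of genes were higher and 18.1% lower.

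Over all tumour cells the antiviral sum hardly differed, at 536 CPM in KO and 488 CPM in WT (0.13 [0.11, 0.16]), and Oas3 was the only member called, with a ratio of 0.63 [0.52, 0.75], where 14.9% of all genes were higher and 14.3% lower. The libraries differed in makeup. Neutrophils, the class with the highest sum, were 135 of 4351 KO and 964 of 3844 WT tumour cells and gave 5.80% of the KO and 20.7% of the WT antiviral UMIs. CD8 T cells, with a low sum, were 28.7% of KO and 11.6% of WT cells, and NK cells 16.5% of KO and 3.80% of WT cells. Over the 13 classes with enough cells in both libraries, the log2 ratio was 0.15 as observed and 1.07 when the KO levels were weighted by the WT mix of classes.

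In the spleen the antiviral genes were higher in KO monocytes by a smaller factor. The sum over classical and non-classical monocytes was 512 CPM in 1311 KO and 348 CPM in 2663 WT cells (0.56 [0.51, 0.60]). Of the 10 members, 6 passed the 1.5-fold limit upward and 0 downward, where 3.8% of all genes were higher and 5.26% lower. These were Isg15, the 4 Ifit genes and Oasl1. Isg15 had 52.5 CPM in KO and 24.2 CPM in WT monocytes (1.12 [0.96, 1.27]), Ifit2 34.9 CPM in KO and 17.3 CPM in WT (1.02 [0.83, 1.20]). The synthetases were closer, with Oas3 at 98.7 CPM in KO and 69.8 CPM in WT monocytes (0.50 [0.40, 0.60]) and Oas1a at 40.4 CPM in KO and 43.7 CPM in WT (−0.11 [−0.27, 0.04]). Classical monocytes alone also gave 6 higher and 0 lower, where 4.06% of genes were higher and 5.29% lower, with a sum of 596 CPM in KO and 414 CPM in WT (0.53 [0.48, 0.58]). Non-classical monocytes gave 3 higher (Isg15, Ifit2 and Oasl1) and 0 lower, where 4.49% were higher and 5.24% lower, with a sum of 282 CPM in KO and 214 CPM in WT (0.40 [0.28, 0.51]).

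In spleen neutrophils the sum was 1471 CPM in 1461 KO and 1245 CPM in 2276 WT cells (0.24 [0.19, 0.29]). Ifit1, at 139 CPM in KO and 65.0 CPM in WT (1.10 [0.91, 1.29]), and Ifit3, at 54.3 CPM in KO and 32.8 CPM in WT (0.73 [0.44, 1.02]), were the 2 members past the limit, where 4.28% of all genes were higher and 9.93% lower. Oasl2, the most abundant member there, did not differ beyond counting error, with 695 CPM in KO and 682 CPM in WT neutrophils (0.03 [−0.04, 0.10]). The share of spleen neutrophils with a high sum was 7.91% in KO and 5.72% in WT, a difference of 2.19 points [0.51, 3.98]. Spleen NK cells had the lowest sums among the larger classes, 74.6 CPM in KO and 69.2 CPM in WT (0.11 [−0.07, 0.29]), and 2 of 9 members, Isg15 and Ifit3, were higher in KO, where 3.57% of all genes were higher and 4.63% lower. With called doublets kept, that NK cell ratio was −0.25.

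The smaller spleen classes gave fewer counts. In cDC2 the sum was 344 CPM in 90 KO and 286 CPM in 137 WT cells (0.27 [0.06, 0.47]), and 3 of 9 members were higher in KO, against 7.85% of genes, and 1, Oas1a, lower, against 8.86%. Red pulp macrophages, which clear aged red cells, had 268 CPM in 96 KO and 178 CPM in 90 WT cells (0.59 [0.16, 1.03]), and 0.48 on the log2 scale without the highest cell of each library. Their 3 members with enough UMIs were all higher, where 16.9% of genes were higher and 12.1% lower. In B cells 2 of 7 members were higher and 0 lower, where 6.53% of genes were higher and 8% lower. In T cells the sum was 145 CPM in 172 KO and 169 CPM in 69 WT cells (−0.22 [−0.64, 0.21]), and 0 of 3 members passed the limit, where 10.2% of genes were higher and 10.7% lower. Over all spleen cells, Ifit2 was higher (0.60), against 12.7% of genes, and Oas1a lower (−0.73), against 9.14%, and the sum was 377 CPM in KO and 393 CPM in WT.

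The tumour and spleen profiles of the same class differed in which members led. The comparison within a genotype crosses 2 sort gates and 2 libraries, which cannot be told apart from the organ, and it uses the same libraries as the comparisons of KO with WT. In classical monocytes the sum was 1446 CPM in KO tumours and 596 CPM in KO spleens (log2 of tumour over spleen 1.28 [1.23, 1.33]), and 686 CPM in WT tumours and 414 CPM in WT spleens (0.73 [0.68, 0.78]). In each genotype 6 members were at least 1.5-fold higher in the tumour, against 14% of all genes in KO and 14.9% in WT. Isg15 led this difference, with 467 CPM in KO tumours and 66.6 CPM in KO spleens (2.81 [2.69, 2.94]) and with 204 CPM in WT tumours and 32.0 CPM in WT spleens (2.67 [2.54, 2.80]). Oas3 went the other way in WT, with 37.4 CPM in tumours and 78.1 CPM in spleens (−1.06 [−1.24, −0.88]), and was level in KO, with 107 CPM in tumours and 108 CPM in spleens (−0.01 [−0.15, 0.12]). Oas2 was likewise lower in the WT tumour, at 25.3 CPM against 47.8 CPM in the spleen (−0.92 [−1.14, −0.70]).

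In neutrophils, members also lay on both sides of 0. Isg15 stood at 1170 CPM in KO tumours and 124 CPM in KO spleens (3.24 [3.07, 3.41]), and at 383 CPM in WT tumours and 83.0 CPM in WT spleens (2.21 [2.06, 2.36]). Oasl2 stood at 461 CPM in KO tumours and 695 CPM in KO spleens (−0.59 [−0.78, −0.41]), and at 256 CPM in WT tumours and 682 CPM in WT spleens (−1.41 [−1.52, −1.31]). Oas2, Oas3 and Oasl2 were at least 1.5-fold lower in tumour than in spleen neutrophils in both genotypes, where 31.6% of all genes were lower in the KO and 40.2% in the WT tumour. Isg15 made up 40.9% of the antiviral UMIs of KO and 32.7% of those of WT tumour neutrophils, but 8.41% of those of KO and 6.66% of those of WT spleen neutrophils, where Oasl2 made up 47.3% in KO and 54.7% in WT. In total the neutrophil sum was 0.96 [0.88, 1.04] higher on the log2 scale in the tumour than in the spleen of KO mice, with 7 members higher where 34.4% of all genes were. In WT mice it was −0.09 [−0.14, −0.03], with 4 members higher where 24.7% of all genes were.

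In the other classes the log2 ratios of tumour over spleen in KO and in WT are given side by side, and the difference between them was not tested. The cDC2 sum gave 1.80 [1.63, 1.97] in KO and 0.35 [0.18, 0.53] in WT, with 8 of 10 members higher in the KO tumour, against 16.6% of genes, and 3 of 8 in the WT tumour, against 13%. The non-classical monocyte sum gave 1.04 [0.89, 1.19] in KO and −0.23 [−0.46, −0.02] in WT, with 5 of 9 members higher in KO, against 10.1%, and 2 of 10 in WT, against 9.94%. NK cells gave 0.47 [0.30, 0.63] in KO and 0.31 [−0.06, 0.66] in WT, with 6 of 9 members higher in KO, against 14.5%, and 4 of 8 in WT, against 12.6%. B cells gave 0.71 [0.29, 1.13] in KO and 0.50 [0.05, 0.95] in WT, with 4 of 6 members higher in KO, against 11%, and 1 of 3 in WT, against 12.3%. CD4 T cells had enough cells in both organs in KO mice only (1.01 [0.57, 1.47]), with 2 of 6 members higher, against 23.4%. Other members were at least 1.5-fold lower in the tumour. These were 4 in WT and 0 in KO non-classical monocytes, and 2 in WT and 0 in KO cDC2. They were 2 in KO and 2 in WT NK cells, 1 in KO and 1 in WT B cells, and 1 in KO CD4 T cells. The share of all genes lower in the tumour was not counted for these classes, so the downward counts have no background.

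**Figure D5:**
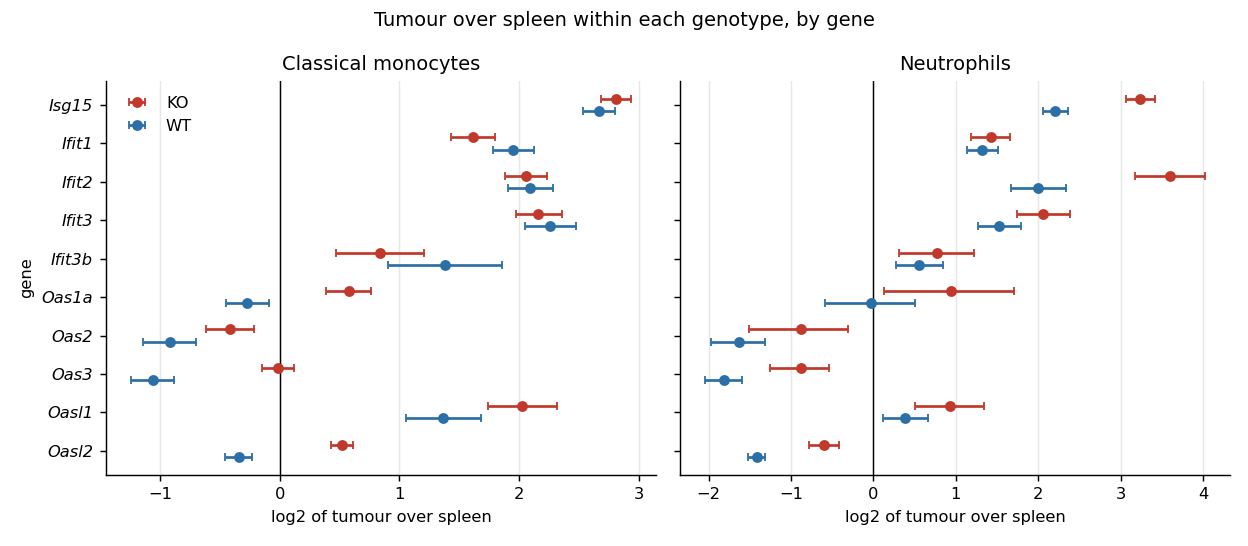
Log2 ratio of tumour over spleen (horizontal axis) for each gene in classical monocytes and neutrophils, with KO in red above WT in blue and bars for the 95% interval. Isg15, Ifit1, Ifit2 and Ifit3 lie right of 0 in both classes and genotypes, and Oas2 lies left of 0 in all 4 comparisons.

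Other genes of the pathway were counted in tumour phagocytes from lists chosen with earlier results of these data known. The 1.5-fold limit was the same, and 11% of all genes in this class passed it upward and 14.1% downward. Of the 4 other Ifit and Oas family genes with enough UMIs, 2 were higher in KO and 1 lower, with Ifit1bl1 at 0.96 [0.70, 1.22] and Oas1g at 0.87 [0.53, 1.21]. The lower one, Ifit1bl2, had 4 UMIs in KO and 17 in WT and is named after its value was seen. Of the 6 genes that attach or remove ISG15, 4 were higher and 0 lower. Uba7, the enzyme that activates ISG15, stood at 41.8 CPM in KO and 15.4 CPM in WT (1.44 [1.23, 1.65]), and Herc6, the mouse ISG15 ligase, at 86.5 CPM in KO and 37.1 CPM in WT (1.22 [1.08, 1.36]). Of 9 genes listed for the response to double-stranded RNA, 7 were higher and 0 lower, led by Zbp1, a sensor of Z-form nucleic acid (1.69 [1.62, 1.76]), and Ifih1, which codes for MDA5 (1.05 [0.92, 1.17]).

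For the receptor of type I interferon and its signalling proteins, 9 genes were tested and 4 were higher and 0 lower, with the inhibitor Socs1 at 127 CPM in KO and 32.3 CPM in WT (1.97 [1.83, 2.11]). Of 13 other antiviral effectors, 9 were higher and 0 lower, with Ifi44 at 1.96 [1.57, 2.37] and Rnf213 at 1.16 [1.08, 1.23]. The 11 tested genes induced chiefly by interferon gamma were all higher in KO, with a median log2 ratio of 2.38, beside 1.08 for the antiviral members. Among them were the guanylate-binding genes Gbp2b (4.10 [3.66, 4.58]) and Gbp4 (2.85 [2.69, 3.00]). Of 8 housekeeping genes, 2 were lower and 0 higher, with the glycolytic Pgk1 at −0.75 [−0.79, −0.71] and Gapdh at −0.59 [−0.61, −0.57].

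The interferon genes themselves were rarely captured, except Ifng, the gene of interferon gamma. Over all tumour cells Ifng had 10152 UMIs in KO and 1054 in WT, and the 12 interferon alpha genes had 1 in KO and 0 in WT. These totals are not scaled for library size or for the mix of classes, which differed between the libraries. Within T and NK cell classes, 1 interferon gene had enough UMIs. Its log2 ratio was 1.58 in CD8 T cells, 1.995 in NK cells, 2.98 in CD4 T cells and 4.73 in the remaining T cells. In phagocytes Ifng had 42 UMIs in KO and 19 in WT (1.70 [0.89, 2.56]). Ifnb1, the gene of interferon beta, is named after its value was seen and had 19 UMIs in 6 KO phagocytes and 10 UMIs in 6 WT phagocytes. With called doublets kept, the WT value was 42 UMIs in 7 cells, 32 of them in 1 cell, so the direction for Ifnb1 rested on a single droplet.

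Across the 48 profiles of class, organ and genotype with at least 50 cells, members followed each other, with Pearson's r of a member with the mean of the other 9 between 0.69 for Oas1a and 0.87 for Ifit1. The profiles share libraries and depth, and r is given as a description only. Among 10740 genes compared, the non-member most like the mean of the 10 was Rtp4, an interferon-inducible gene (0.88). It was followed by Lilrb4a and Ptgs2 (both 0.84), Slc15a3 and Rsad2 (both 0.83), Il1b, Wfdc17, 1700019L13Rik and Lilr4b (all 0.81), and Bst1 (0.80). Across single WT tumour neutrophils thinned to 1000 UMIs, the median pairwise r among members with enough UMIs was 0.39 over 28 pairs. Ifit3 and Ifit3b reached 0.84 there, and Ifit1 and Ifit3 0.78. In KO tumour neutrophils the median was 0.44 over 3 pairs, and in KO tumour CD8 T cells 0.30 over 6 pairs. The median was 0.09 over 36 pairs in KO and 0.18 over 28 pairs in WT tumour phagocytes. In the spleen it was 0.21 over 28 pairs in KO and 0.14 over 36 pairs in WT neutrophils. It was 0.08 in KO and 0.05 in WT spleen monocytes, over 28 pairs each, and 0.01 over 3 pairs in KO spleen NK cells. Medians over unlike sets of pairs are not like for like. Rsad2, whose product viperin blocks viral replication, did not differ in phagocytes beyond counting error, with 183 CPM in KO and 180 CPM in WT (0.02 [−0.05, 0.10]).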

How the data were processed

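Each deposited matrix holds raw UMI counts by gene and barcode, with no normalization by the authors, written by Cell Ranger 6.0.0 per the file headers. The submitters' processing notes list Cell Ranger 3.1, Seurat 3.1.4 and 3.1, mm10 and GRCm38. Which gene annotation they used is not given in these sources. The authors pooled 3 mice per group per the series text, or 3 to 4 per the labels' protocols, and loaded 16000 cells per lane.

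Cells with at least 200 genes, 500 UMIs and at most 10% mitochondrial UMIs were kept. Median depth of the kept cells was 10102 UMIs in KO and 7043.5 in WT tumours, and 4267 in KO and 4615 in WT spleens. Doublets were scored against simulated ones, and the top 0.8% per 1000 barcodes were left out (4.35% to 6.96% of cells). Each cell was scored on 18 of the 23 marker lists as the mean log-scaled count per 10000. It was assigned to the highest list at a score of at least 0.5 and a lead of at least 0.1 over lists of other families. These limits were set after the files had been seen. The macrophage and monocyte lists formed 1 family and the neutrophil and granulocyte progenitor lists another. Within a family the highest score decided, with no lead required. T cells were divided by UMIs of Cd8a, Cd8b1, Cd4, Foxp3 and Trdc. Ungated cells were 3.79% of KO and 5.96% of WT tumour cells, and 1.81% of KO and 2.13% of WT spleen cells, and between 2.55% and 6.35% of cells lay near a limit.

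Classes with at least 50 cells in both libraries were compared on UMIs summed per class and library and scaled to counts per 1000000 UMIs (CPM). A gene was counted as higher or lower at 1.5-fold with at least 20 UMIs over both libraries. Ratios have exact conditional binomial intervals, levels exact Poisson intervals, shares exact (Clopper-Pearson) intervals and differences of shares Newcombe intervals, at 95%. A high sum was 5 or more UMIs of the 10 genes in a cell thinned to 1000 UMIs. Likeness used log2(CPM + 10) and genes reaching 20 CPM. The ratio, its interval and the 1.5-fold calls were tested on simulated data. All members are named; the other pathway genes named are the 2 per list with the largest absolute log2 ratio at 50 or more UMIs in tumour phagocytes, and the 10 most like the members. A value that this rule would name is not reported here. The members and lists were chosen with earlier results of these data known. Analysis used Python 3.11.15, numpy 2.4.6, scipy 1.17.1 and pandas 2.3.3. Positions are from GENCODE M21 and promoters from RefSeq. Cells were not assigned to single mice.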

Additional observations from a re-analysis of the deposited data

Results flagged for a closer look

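Results are given here where a class or organ went against another, or where the antiviral genes gave counts in cells outside the comparisons. None of these differences was tested. In tumour migratory dendritic cells the sum of 10 genes was lower in KO (log2 ratio −0.90), against 1.12 in tumour mononuclear phagocytes. Ifit3 in NK cells was lower in KO in the tumour (−0.77 [−1.70, 0.25], from 42 KO and 13 WT UMIs) and higher in KO in the spleen (0.59 [−0.32, 1.58], from 41 KO and 14 WT UMIs), and both intervals include 0. Oas1a in cDC2 was higher in KO in the tumour (0.98 [0.42, 1.55]) and lower in KO in the spleen (−0.90 [−1.80, −0.07], from 16 KO and 55 WT UMIs).

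Cells that no marker list claimed held antiviral UMIs as well. In the tumour, 165 KO and 229 WT ungated cells had sums of 924 CPM in KO and 710 CPM in WT (0.38 [0.28, 0.48]). In the spleen, 117 KO and 149 WT ungated cells had 262 CPM in KO and 112 CPM in WT (1.23 [0.95, 1.52]).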

How the results depend on the processing

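No paired analysis was possible because each group had 1 library and the labels give no replicate numbers. Over the results that carry the comparisons, 156 alternative values stayed within the counting interval of the reported value, or within 1.5 times a count, and 41 did not; none changed the sign of a called difference, and the cause of each shift was not tested. The tumour phagocyte ratio was 1.16 with cells thinned to 1000 UMIs, 1.04 with equal weight per cell, 1.06 without Isg15 and 1.33 without the top 1% of cells by antiviral UMIs. The tumour neutrophil ratio was 1.09 thinned, 1.18 with classes from clusters, 1.10 without Isg15 and 1.55 without the top 1%. In that class 6 members were at least 2-fold higher, but the share of all genes at 2-fold was not counted, so this count has no background. Thinning gave 1.20 in CD8 T cells and 1.34 in NK cells of the tumour, whose NK ratio ranged over its alternatives from −0.04 to 1.34. The cDC2 ratio was 2.02 with stricter gates and 1.17 with clusters. The migratory dendritic cell ratio was −1.08 thinned, −0.63 with doublets kept, −0.69 with stricter gates, −1.14 without Isg15 and −0.60 without the top 1% of cells or without the highest cell of each library. The leaving out of top cells and the thinning to 5000 UMIs were chosen after seeing the data.

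In the spleen, the monocyte ratio was 0.67 thinned, 0.44 with doublets kept and 0.51 without Isg15, and 3 of its members were at least 2-fold higher. With doublets kept the neutrophil ratio was 0.32 and the NK cell ratio −0.25, against a reported 0.11 that was not called. The neutrophil members past the limit were 4 thinned, 4 with doublets kept and 1 at 2-fold. The share of all genes was not counted at 2-fold or in these alternatives, so these spleen counts have no background. The difference in cells with a high sum was 10.3 points in tumour phagocytes and 1.95 points in spleen monocytes at 3 or more UMIs, and 10.3 and 4.56 points above the 90th percentile of WT cells. In tumour neutrophils it was 2.81 points at 10 or more UMIs and 3.62 points without Isg15. Tumour over spleen was, without Isg15, 0.89 in KO and 0.34 in WT classical monocytes and 0.33 in KO and −0.56 in WT neutrophils. Thinned, it was 1.19 in KO and 0.62 in WT classical monocytes and 0.10 in WT neutrophils.

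Small classes limit the rest: in 73 to 140 cells, 1 cell can set the sum, and intervals cover counting error but neither cells nor mice. Thinned means near 1 UMI per cell carry little information.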

Other observations

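Some classes reached 50 cells in 1 library only and entered no comparison between genotypes. Immature neutrophils of the KO spleen, 360 cells, had a sum of 10 genes of 179.5 CPM, against 1471 CPM in the mature neutrophils of that library. Erythroid cells of the WT spleen, 61 cells, had a sum of 374 CPM, of which Isg15 gave 229 CPM while Ifit3 was at 0 UMIs. cDC1 of the KO tumour, 75 cells, had a sum of 168 CPM, against 1194 CPM in the cDC2 of the same tumour. Cells over the mitochondrial limit had sums of 219 CPM in KO and 323 CPM in WT tumours (−0.56 [−0.73, −0.39]), and of 151 CPM in KO and 208 CPM in WT spleens (−0.46 [−0.75, −0.17]). These cells were not divided into classes, and over all kept cells the ratio was 0.13 in tumours and −0.06 in spleens.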
